A study of Mus musculus with 12 samples.

Results

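The genes described here are 10 members of the NLRP3 inflammasome pathway: Nlrp3, Pycard, Casp1, Casp4, Il1b, Il18, Gsdmd, Nek7, Txnip and P2rx7. They were chosen by symbol from the 25319 genes of the count table, and all 10 were present. All 10 also passed the filter on low counts, among 14965 genes tested.

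The NLRP3 inflammasome is a protein complex of innate immunity. Its sensor NLRP3 recruits the adaptor ASC, the product of Pycard, which gathers pro-caspase-1, and active caspase-1 cleaves the precursors of interleukin-1β and interleukin-18 and the pore-forming protein gasdermin D. Priming through NF-κB raises transcription of Nlrp3 and Il1b, whereas assembly and cleavage act on proteins and leave no direct trace in RNA. In the heart these genes are known from macrophages and from fibroblasts.

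The left ventricles of 12 C57BL/6 males were profiled by sequencing of poly(A) RNA, 1 library per mouse. All mice had surgery when 8 weeks old and were sampled when 12 weeks old. In transverse aortic constriction (TAC) a clip narrows the aortic arch and loads the ventricle with pressure, and sham-operated mice had the surgery without the clip. Within each surgery 3 mice received oral dantrolene, a blocker of ryanodine receptor calcium release channels, with a daily dose of 30 mg/kg over 4 weeks, and 3 were controls, for which the labels give no vehicle. This gives 4 groups of 3: control and dantrolene mice of each surgery. All were of 1 strain with no altered gene in the labels. The study's title names RyR2 inhibition, TNF-α, NF-κB and NLRP3 signalling in cardiac hypertrophy, so the comparisons below ask whether inflammasome transcripts differed with pressure overload and with the drug.

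Libraries held 25766378 to 38363106 reads, and mitochondrial genes took 1.71% to 22.4% of them. The tissue label was checked against marker genes: 6 ventricular cardiomyocyte markers summed to 48620 to 76510 CPM (read counts relative to library size, scaled by edgeR's trimmed mean of M-values, TMM) and the 3 atrial markers found to 1.79 to 13.2. The load-response gene Acta1, skeletal α-actin, stood 3.09 ± 0.49 log2 units (SE) above sham control in TAC control, with an adjusted p of 0.179 from edgeR's quasi-likelihood test. It had 887 to 3708 CPM in TAC control and 232 to 343 CPM in sham mice, but 146 to 312 CPM in TAC dantrolene, so by this gene the TAC dantrolene mice did not stand above sham mice. Of 4 load-response genes (Nppa, Nppb, Acta1 and Myh7), all had fitted values above sham control in TAC control, whereas 2 were above and 2 below sham dantrolene in TAC dantrolene, and 0 passed the test. Myh7, β-myosin heavy chain, overlapped between all groups. In earlier results of these data 4 libraries, 1 from each group, stood apart on the first principal component, which held 41.7% of the variance. They are sham control mouse 3, sham dantrolene mouse 3, TAC control mouse 1 and TAC dantrolene mouse 1. Results that rest on them are given with and without them, and a difference within the 4 compares single mice.

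Per unit length the members spanned a wide range. Levels between genes are compared here in FPKM, a value corrected for both the length of a gene and the size of its library, as the mean ± SD over the 12 libraries. Txnip led with 212 ± 66.6 FPKM, rank 372 of 25258 genes. Pycard followed with 14.1 ± 7.16 FPKM, and Gsdmd had 4.78 ± 1.11 FPKM. Txnip lay above Pycard, and Pycard above Gsdmd, in each of the 12 libraries. Nek7 had 2.64 ± 1.70 FPKM and lay under Gsdmd in 11 libraries. It exceeded Il1b in 9 libraries. The next 4 genes in the order did not separate: Il1b had 1.33 ± 1.79, P2rx7 0.779 ± 0.234, Casp1 0.752 ± 0.599 and Il18 0.563 ± 0.426 FPKM. Il1b exceeded P2rx7 in only 3 of 12 libraries, and P2rx7 exceeded Casp1 in 6. Casp4 had 0.275 ± 0.127 FPKM. Nlrp3, the sensor that gives the complex its name, had the lowest mean of the members at 0.104 ± 0.083 FPKM and lay under Casp4 in 11 libraries. In bulk tissue a low level in every cell and a high level in few cells cannot be told apart.

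**Figure D1:**
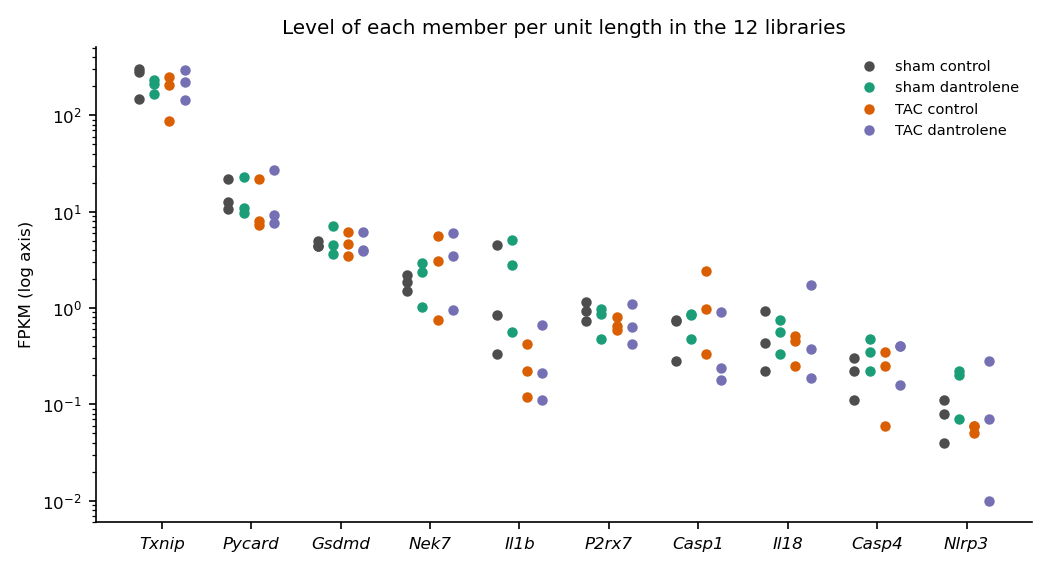
FPKM of each member (vertical log axis) in the 12 libraries, ordered by mean, with 1 point per mouse and the 4 groups in colour. Txnip sits above all other members in each library, and Nlrp3 has the lowest mean.

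No member passed the threshold of an adjusted p of 0.05 in any of the 7 comparisons by edgeR, and neither did any of the 14965 genes (0% called in each). The sparse calls set the scale for what follows. In TAC control against sham control, 1 of 10 members had an unadjusted p under 0.05 (Il1b), beside 7.93% of all genes. In TAC dantrolene against TAC control it was 1 of 10 (Casp1), beside 3.25%. In sham dantrolene against sham control it was 0 of 10, beside 0.715%. In TAC dantrolene against sham dantrolene it was 1 of 10 (Il1b), beside 1.71%. The interaction, which asks whether the drug difference depended on surgery, gave 0 of 10, beside 2.82%. Over both treatments, TAC against sham gave 1 of 10 (Il1b), beside 6.78%. Over both surgeries, dantrolene against control gave 0 of 10, beside 1.04%. Several of these comparisons share groups, so they are not independent.

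The direction of the members as a list is given beside that of all genes and was not tested. In TAC control against sham control 5 were above and 5 below (57.2% of all genes were above). The median log2 difference was -0.02 beside 0.10 over all genes tested. Under TAC, dantrolene mice were above control mice in 6 members and below in 4, with a median of 0.19 beside 0.02 (51.8% of all genes were above). Under sham they were above in 8 and below in 2, with a median of 0.27 beside 0.02 (52.5% of all genes were above). For dantrolene against control over both surgeries 8 were above and 2 below, with a median of 0.14 beside 0.03 (56.7% of all genes were above). In TAC dantrolene against sham dantrolene 4 were above and 6 below, with a median of -0.09 beside 0.08 (59.9% of all genes were above). The 95% intervals were wide. In TAC control against sham control the interval of P2rx7 ran from -0.94 to 0.53 and that of Il18 from -2.21 to 1.92, so a 2-fold difference in the weakly expressed members was not detectable at this depth and spread.

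**Figure D2:**
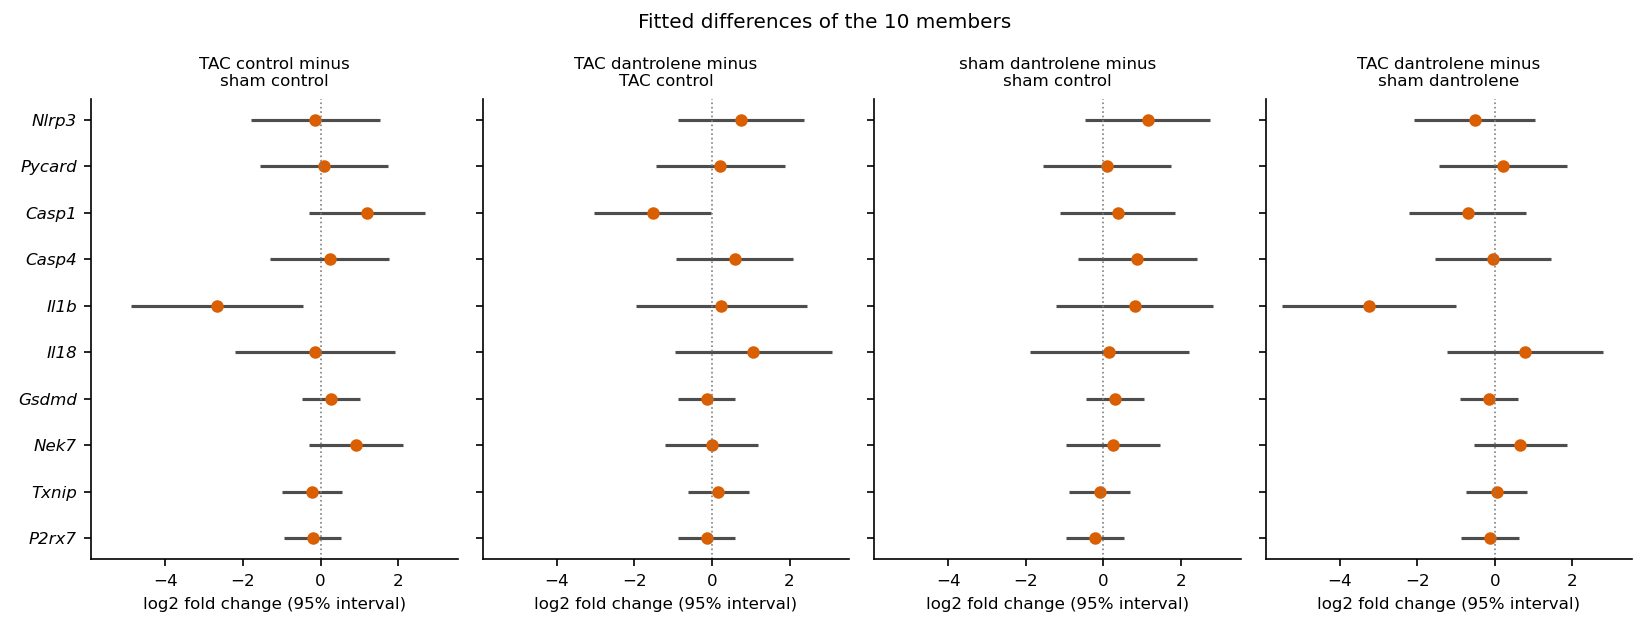
Fitted log2 difference (point) and 95% interval (line) of the 10 members in 4 pairwise comparisons. In TAC control minus sham control the interval of Il1b, -4.89 to -0.46, does not reach 0, but its adjusted p is 0.558.

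Nlrp3 encodes the sensor, and its transcript, like that of Il1b, is known to be raised by priming. The gene lies on chromosome 11 (GRCm38, chr11:59541568-59566956, plus strand). RefSeq (GRCm38.p6) lists 2 promoters for it, and the 250 bases before the upstream start (chr11:59541319-59541568, plus strand) are shown because they held a match to the kappaB consensus, the binding motif of NF-κB, in capitals.
Nlrp3: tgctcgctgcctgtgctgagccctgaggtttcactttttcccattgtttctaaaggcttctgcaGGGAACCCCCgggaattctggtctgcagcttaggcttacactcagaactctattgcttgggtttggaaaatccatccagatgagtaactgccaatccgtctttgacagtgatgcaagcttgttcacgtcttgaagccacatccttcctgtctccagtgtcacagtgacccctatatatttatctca
The match begins at position -186, counted back from the start. The consensus was added after the sequences were seen, it reads on both strands, and 7.25% of 32851 RefSeq promoters of this length hold it. The other listed start of Nlrp3 had no match.

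Nlrp3 was counted with only 2 to 51 reads per library. It had 0.464, 0.318 and 0.189 CPM in sham control mice 1 to 3 and 0.865, 0.933 and 0.372 CPM in sham dantrolene mice 1 to 3. It had 0.311, 0.293 and 0.294 CPM in TAC control mice and 0.0810, 1.07 and 0.313 CPM in TAC dantrolene mice. TAC control mice lay inside the range of sham control mice. TAC dantrolene held both the highest and the lowest value of the 12. TAC control differed from sham control by -0.13 ± 0.77 log2 units (SE; 95% interval -1.79 to 1.53; edgeR adjusted p = 0.971). Dantrolene differed from control by 0.75 ± 0.75 under TAC (adjusted p = 1.00) and by 1.14 ± 0.74 under sham (adjusted p = 1.00), so both fitted differences were above 0. Leaving out TAC dantrolene mouse 2, with its 51 reads, turned the TAC value to -0.55. Within the 4 libraries apart the drug difference of log2 means under TAC was -1.18, and within the other 8 it was 0.82. Averaged over both surgeries the drug difference was 0.95 ± 0.53 (adjusted p = 1.00), and it lay between 0.29 and 1.22 over the 20 alternative settings. As a difference of log2 means it was -0.24 within the 4 libraries apart and 0.93 within the other 8.

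The genes whose log2 CPM followed Nlrp3 most closely over the 12 libraries were Ppargc1b (Pearson r = 0.912), Man1c1 (0.900) and Dlc1 (0.896). Ppargc1b encodes a transcriptional coactivator of mitochondrial metabolism. These correlations describe the same libraries and share their depth and composition.

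Pycard encodes the adaptor ASC (chr7:127989708-127993867, minus strand). It had 18.7, 14.8 and 36.4 CPM in sham control mice 1 to 3 and 16.3, 14.3 and 44.3 CPM in sham dantrolene mice 1 to 3. It had 50.0, 13.2 and 11.6 CPM in TAC control mice and 63.8, 12.0 and 11.2 CPM in TAC dantrolene mice. Each group held 1 high value, in the library that stood apart, and the 4 groups overlapped. The high libraries had 36.4 to 63.8 CPM and the other 8 had 11.2 to 18.7 CPM. Group differences were small beside this spread: 0.09 ± 0.76 log2 units for TAC control against sham control and 0.22 ± 0.76 for the drug under TAC (adjusted p = 0.979 and 1.00). Within the other 8 libraries the difference of log2 means was -0.42 for TAC control against sham control, and within the 4 libraries it was 0.46.

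Casp1 encodes the inflammatory protease of the complex (chr9:5298517-5307265, plus strand). It had 1.20, 0.414 and 1.28 CPM in sham control mice 1 to 3 and 1.36, 1.37 and 0.992 CPM in sham dantrolene mice 1 to 3. It had 0.799, 1.70 and 4.09 CPM in TAC control mice and 0.607, 0.252 and 1.44 CPM in TAC dantrolene mice. TAC control mouse 3 had the highest value of the 12 libraries, and the groups overlapped. The labels do not say what a mouse number marks. Matched by number, the dantrolene mouse was below the control mouse in each of the 3 TAC pairs. The share of all genes with such an order is not given, so the count is only a description. Under TAC, dantrolene mice were 1.53 ± 0.70 log2 units below control mice (95% interval -3.04 to -0.02; adjusted p = 1.00). With the replicate number as a block the difference was -1.57 ± 0.54 (adjusted p = 0.367).

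That estimate moved with single mice. It was -0.73 without TAC control mouse 3 and -2.40 without TAC dantrolene mouse 3. Without the 4 libraries apart it was -1.78 (adjusted p = 0.206). TAC control against sham control gave 1.19 ± 0.69 (adjusted p = 0.678), which became 0.39 without TAC control mouse 3. Within the 4 libraries apart that difference of log2 means was -0.62, and within the other 8 it was 1.75. The interaction was -1.90 ± 0.98 (adjusted p = 1.00).

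Fibroblast markers, macrophage markers and the mitochondrial share also differed between these mice. The summed CPM of 5 fibroblast markers was 265, 754 and 976 in TAC control mice 1 to 3, 243, 275 and 522 in TAC dantrolene mice 1 to 3, and 254 to 470 in the 6 sham mice. Dcn made up most of the fibroblast sum in TAC control mice 2 and 3, with 521 and 743 CPM. Pdgfra had 15.9 and 19.3 CPM in those mice, and 20.3 and 20.7 CPM in TAC dantrolene mice 2 and 3. TAC control mouse 3 also had the highest mitochondrial share, 22.4%. The 14 macrophage markers summed to 1030, 680 and 754 CPM in TAC control mice 1 to 3 and 1178, 492 and 345 CPM in TAC dantrolene mice 1 to 3. C1qa, C1qb and C1qc made up most of the sum, with 334, 305 and 237 CPM in TAC control mouse 1. The sum therefore says little about the remaining macrophage markers. Both marker sums overlapped between the TAC groups over all mice, and outside the libraries apart both were higher in each TAC control mouse than in each TAC dantrolene mouse. Of the macrophage markers 12 of 14 had fitted values above sham control in TAC control (median 0.46 beside 0.10 over all genes). In TAC dantrolene 10 of 14 were below TAC control (median -0.23 beside 0.02), so both signs were those of the Casp1 differences. The fibroblast markers shared these signs in 5 and 4 of 5 (medians 0.85 and -0.80). Endothelial markers did so in 4 and 4 of 5 (medians 0.226 and -0.225), so the signs were not particular to macrophages. Of 6 ventricular cardiomyocyte markers 2 were above in the first comparison and 2 below in the second. Of all these markers 0 passed the test in either comparison. The part of these values in the Casp1 difference was not tested. The genes most like Casp1 over the 12 libraries were Gpx8 (Pearson r = 0.961), Ctsc (0.934) and Calm2 (0.928). Gpx8 encodes a peroxidase of the endoplasmic reticulum and Ctsc a lysosomal protease that activates granule proteases.

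Casp4 encodes caspase-11, the mouse sensor of cytosolic lipopolysaccharide in the non-canonical pathway. It lies 1563 bases from Casp1 (chr9:5308828-5336783, plus strand), and the next gene in the cluster, Casp12, begins 8647 bases beyond it. The 250 bases before its first RefSeq start (chr9:5308599-5308848, plus strand) are shown because they held more matches to the kappaB consensus, in capitals, than the other member promoters searched.
Casp4: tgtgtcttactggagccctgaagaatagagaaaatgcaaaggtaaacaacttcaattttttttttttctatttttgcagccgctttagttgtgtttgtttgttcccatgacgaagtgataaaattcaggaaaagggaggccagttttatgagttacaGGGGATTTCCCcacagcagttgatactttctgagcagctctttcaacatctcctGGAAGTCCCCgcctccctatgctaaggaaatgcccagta
Overlapping matches begin at positions -93 and -92, and another lies on the opposite strand at -39. Casp4 and Nlrp3 were the only members with such a match among the 9 whose promoters were in the RefSeq table, where Gsdmd had no entry. The shorter core GGGANTTTC, the interferon-response core GAAANNGAA and the gamma-activated sequence TTCNNNGAA were searched on both strands and found in 0 of the 9, beside 0.941%, 7.13% and 7.02% of all promoters.

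Casp4 was counted with 3 to 24 reads per library, and its 17, 10 and 5 reads in sham control mice 1 to 3 happened to equal those of Nlrp3. It had 0.464, 0.318 and 0.189 CPM in sham control mice 1 to 3 and 0.340, 0.529 and 0.951 CPM in sham dantrolene mice 1 to 3. It had 0.133, 0.586 and 0.411 CPM in TAC control mice and 0.972, 0.210 and 0.595 CPM in TAC dantrolene mice. All groups overlapped. The drug difference was 0.59 ± 0.70 log2 units under TAC and 0.87 ± 0.70 under sham (adjusted p = 1.00 for both). Within the 4 libraries apart the drug difference over both surgeries was 2.03, and within the other 8 it was -0.12. TAC control differed from sham control by 0.23 ± 0.71 (adjusted p = 0.943).

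Il1b encodes interleukin-1β, the cytokine whose precursor caspase-1 cleaves (chr2:129364570-129371139, minus strand). Its promoter is shown because it is the member with the largest fitted differences. None of the searched motifs was in its 250 bases (chr2:129371140-129371389, minus strand), so all letters are lower case.
Il1b: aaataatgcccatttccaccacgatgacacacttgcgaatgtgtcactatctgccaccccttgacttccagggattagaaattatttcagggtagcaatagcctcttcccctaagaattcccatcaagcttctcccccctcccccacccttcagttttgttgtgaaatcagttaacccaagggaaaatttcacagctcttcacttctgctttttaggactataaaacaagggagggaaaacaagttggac
Il1b had 6.49, 1.15 and 0.529 CPM in sham control mice 1 to 3 and 4.05, 0.809 and 9.55 CPM in sham dantrolene mice 1 to 3. It had 0.266, 0.346 and 0.647 CPM in TAC control mice and 0.486, 0.842 and 0.157 CPM in TAC dantrolene mice. All 6 TAC mice were under 1 CPM, whereas 4 of 6 sham mice were above it, and the remaining 2 sham mice lay inside the range of TAC mice.

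The fitted level of Il1b was lower under TAC than under sham in both treatment arms, with no call by edgeR. TAC control differed from sham control by -2.68 ± 1.02 log2 units (adjusted p = 0.558). TAC dantrolene differed from sham dantrolene by -3.24 ± 1.03 (adjusted p = 1.00), which was rank 22 of 14965 genes by p. Over both arms the difference was -2.96 ± 0.72 (95% interval -4.53 to -1.39; adjusted p = 0.543), rank 37 of 14965. DESeq2 called it, with -2.99 ± 0.65 and an adjusted p of 0.00547, where 55 genes (0.378%) were called.

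The sign of the Il1b difference over both arms held in all 20 alternative settings. Leaving out single mice gave -3.29 to -2.11, with the smallest size without sham control mouse 1. For TAC control against sham control alone, the value without that mouse was -0.98. Within the 4 libraries apart the difference of log2 means over both arms was -2.41, and within the other 8 it was -2.15. Dantrolene differed from control by 0.24 ± 1.01 under TAC and 0.81 ± 0.93 under sham (adjusted p = 1.00 for both). The sham value rested on single mice, at -0.17 without sham dantrolene mouse 3 and 2.50 without sham control mouse 1. Within the 4 libraries apart it was 3.94 as a difference of log2 means, and within the other 8 it was -0.56.

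Fitted differences of blood leukocyte markers had the sign of Il1b in some comparisons. Of 8 monocyte and neutrophil markers 7 were tested, and all 7 had fitted values below 0 for TAC against sham over both arms (median -0.87 beside 0.06 over all genes) and for TAC dantrolene against sham dantrolene (median -1.87 beside 0.08). In TAC control against sham control 4 were above and 3 below (median 0.02 beside 0.10), and 0 passed the test in any of these. The 5 lymphocyte markers tested were also all below over both arms (median -0.73) and in TAC dantrolene against sham dantrolene (median -1.61). Macrophage markers went the other way over both arms, with 10 of 14 above (median 0.25). Of both lists 0 passed the test there. The 8 monocyte and neutrophil markers summed to 85.4 CPM in sham dantrolene mouse 3, which had the highest Il1b, and to 1.53 to 21.8 CPM elsewhere. The neutrophil gene S100a8 had 26.6 CPM in that mouse and Ly6g 0.289 CPM, from only 7 reads. In sham control mouse 1 and sham dantrolene mouse 1, the next highest for Il1b, the markers summed to 9.74 and 6.70 CPM, while TAC dantrolene mouse 1 had 21.8 CPM of markers and 0.486 CPM of Il1b. The sums were 6.99 to 9.74 CPM in sham control mice and 15.1 CPM in TAC control mouse 1. No fit of the markers without sham dantrolene mouse 3 is given, so their shared sign may rest on that mouse. The part of these cells in the Il1b difference was not tested. Without sham dantrolene mouse 3 the Il1b difference over both arms was -2.47 (adjusted p = 0.733). In bulk tissue, fewer cells of a type and less RNA per cell cannot be told apart.

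Of all genes tested, those closest to Il1b over the 12 libraries were Ccl3 (Pearson r = 0.945), Cxcl2 (0.893) and Tube1 (0.890). All were named after their values were seen. Ccl3 and Cxcl2 are chemokine genes known to be induced with Il1b in myeloid cells. Ccl3 differed by -2.16 ± 0.54 log2 units between TAC and sham over both arms (adjusted p = 0.543), and Cxcl2 by -3.35 ± 0.95 (adjusted p = 0.590). Both were picked for their likeness to Il1b in these same libraries, so the shared sign is no separate support. Ccl3 had 0.378 to 2.40 CPM in sham mice and 0.121 to 0.526 CPM in TAC mice. Tnf encodes TNF-α, the cytokine named in the study's title. Tnf had 1.32 ± 1.21 CPM (SD, n = 3) in sham control, 1.79 ± 0.66 in sham dantrolene, 0.793 ± 0.044 in TAC control and 0.662 ± 0.303 in TAC dantrolene. Its difference between TAC control and sham control was -0.75 ± 0.69 log2 units (adjusted p = 0.796). Between TAC dantrolene and sham dantrolene it was -1.43 ± 0.70 (adjusted p = 1.00), and over both arms -1.09 ± 0.49 (adjusted p = 0.724).

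**Figure D3:**
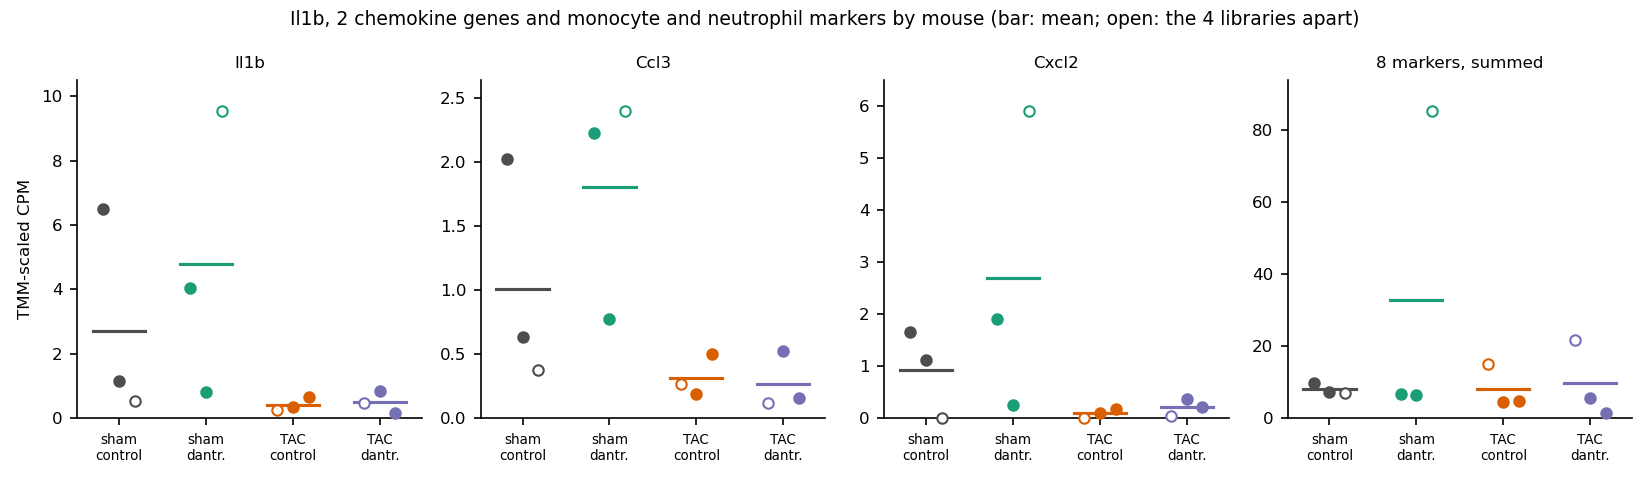
TMM-scaled CPM of Il1b, Ccl3, Cxcl2 and the sum of 8 monocyte and neutrophil markers in each mouse, with bars at group means and open points for the 4 libraries apart. Il1b lies between 0.157 and 0.842 CPM in the 6 TAC mice, and the marker sum is highest, 85.4 CPM, in sham dantrolene mouse 3.

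Il18 encodes the other cytokine cleaved by caspase-1 (chr9:50554827-50581840, plus strand). It was counted with 5 to 51 reads per library. It had 0.327, 0.159 and 0.794 CPM in sham control mice 1 to 3 and 0.433, 0.249 and 0.744 CPM in sham dantrolene mice 1 to 3. It had 0.533, 0.213 and 0.411 CPM in TAC control mice and 2.07, 0.126 and 0.282 CPM in TAC dantrolene mice. As for Pycard, the highest value of each group was in the library that stood apart. The fitted differences were -0.15 ± 0.95 log2 units for TAC control against sham control and 1.07 ± 0.94 for the drug under TAC (adjusted p = 0.974 and 1.00). Within the other 8 libraries the drug difference under TAC was -0.45. Il18 and Pycard had the closest profiles of any pair of members (Pearson r = 0.849 over the 12 libraries, which share depth and composition). The genes most like Il18 were Hsd11b1 (r = 0.938), which encodes the enzyme that regenerates active glucocorticoid, Tatdn3 (0.927) and 3010026O09Rik (0.918).

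Gsdmd encodes gasdermin D, whose cleaved fragment forms membrane pores (chr15:75862327-75867408, plus strand). It had 8.35, 8.78 and 9.33 CPM in sham control mice 1 to 3 and 8.40, 6.88 and 17.2 CPM in sham dantrolene mice 1 to 3. It had 10.1, 9.72 and 12.3 CPM in TAC control mice and 11.6, 10.2 and 7.36 CPM in TAC dantrolene mice. Gsdmd was the 1 member whose TAC control and sham control mice did not overlap, beside 17.4% of all genes tested (7.54% with TAC control higher). The size was 0.28 ± 0.34 log2 units (95% interval -0.46 to 1.02; adjusted p = 0.844), and in the dantrolene arms it was -0.16 ± 0.34 (adjusted p = 1.00). Sham dantrolene mouse 3 had the highest value of the 12. The drug difference of log2 means under sham was 0.88 within the 4 libraries apart and -0.17 within the other 8. No member had groups without overlap in the drug comparison under TAC (4.76% of all genes), the drug comparison under sham (7.37%) or TAC dantrolene against sham dantrolene (4.86%).

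Nek7 encodes the kinase that binds NLRP3 and licenses its assembly (chr1:138482875-138620141, minus strand). It had 10.8, 12.0 and 9.71 CPM in sham control mice 1 to 3 and 13.9, 16.8 and 7.73 CPM in sham dantrolene mice 1 to 3. It had 6.84, 19.7 and 34.5 CPM in TAC control mice and 8.75, 17.7 and 34.4 CPM in TAC dantrolene mice. TAC control and TAC dantrolene covered almost the same range, and the lowest mouse of every group was the library that stood apart. TAC control differed from sham control by 0.91 ± 0.56 log2 units (adjusted p = 0.699), and over both arms the TAC difference was 0.78 ± 0.39 (adjusted p = 0.740). With libraries weighted by quality in limma's voom, TAC control against sham control gave 0.86 ± 0.25 with an adjusted p of 0.0265, where 3299 genes (22%) were called. The weights of TAC control mice 1 to 3 were 0.233, 6.56 and 0.676. The TAC control level in that fit therefore rested mainly on mouse 2. Within the other 8 libraries the difference was 1.19, and within the 4 it was -0.50. The drug difference under TAC was -0.01 ± 0.55 (95% interval -1.21 to 1.20; adjusted p = 1.00).

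**Figure D4:**
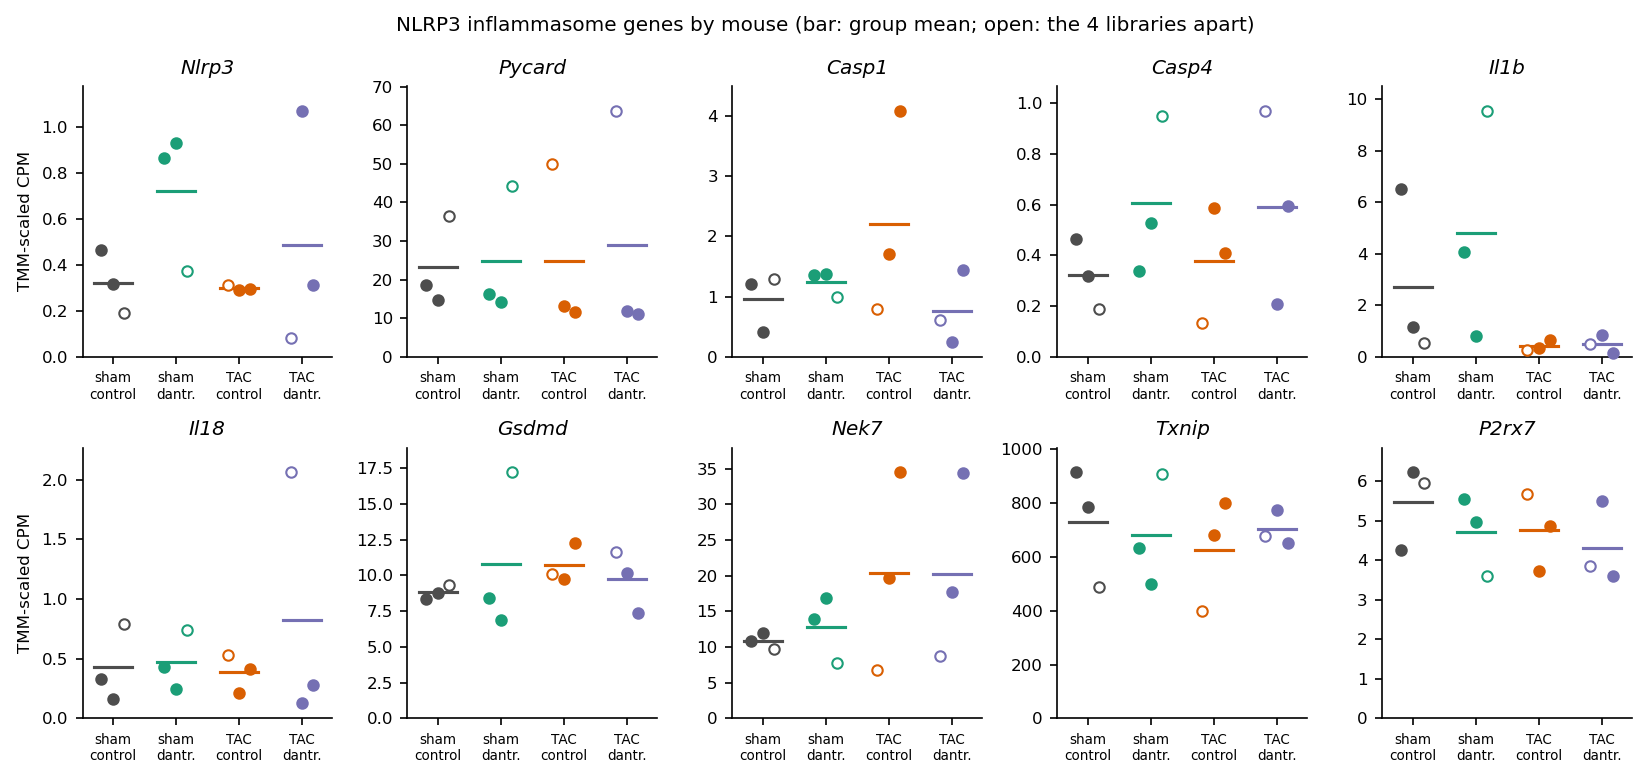
TMM-scaled CPM of each member in each mouse (linear axes from 0), with bars at the means of the 4 groups and open points for the 4 libraries apart. The open points are the highest of their groups for Pycard, at 36.4 to 63.8 CPM, and the lowest for Nek7, at 6.84 to 9.71 CPM.

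Txnip encodes thioredoxin-interacting protein, which binds thioredoxin, restrains glucose uptake and is reported to bind NLRP3 under oxidative stress (chr3:96557957-96561883, plus strand). Its promoter is known for a carbohydrate response element bound by Mlxip and Mlx. The 250 bases before its start (chr3:96557707-96557956, plus strand) are shown for the paired CACGAG matches, in capitals.
Txnip: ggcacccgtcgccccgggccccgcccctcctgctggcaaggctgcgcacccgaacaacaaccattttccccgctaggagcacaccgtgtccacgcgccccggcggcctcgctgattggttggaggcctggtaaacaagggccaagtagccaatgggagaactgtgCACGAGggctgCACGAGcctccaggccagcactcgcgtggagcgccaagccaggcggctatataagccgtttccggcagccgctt
The matches begin at positions -85 and -74. CACGAG was in 5.37% of all RefSeq promoters and in no other member, and the related CACGTG, in 6.02% of promoters, was in Casp1 at -137.

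Txnip had 916, 787 and 489 CPM in sham control mice 1 to 3 and 635, 501 and 908 CPM in sham dantrolene mice 1 to 3. It had 398, 682 and 802 CPM in TAC control mice and 678, 776 and 654 CPM in TAC dantrolene mice. All groups overlapped, and TAC dantrolene had the narrowest range. TAC control differed from sham control by -0.22 ± 0.36 log2 units (95% interval -0.999 to 0.56; adjusted p = 0.890). The drug difference was 0.16 ± 0.36 under TAC and -0.10 ± 0.36 under sham (adjusted p = 1.00 for both). The value under sham averaged opposite differences, with 0.89 within the 4 libraries apart and -0.59 within the other 8 as differences of log2 means. Fitted without the 4 libraries it was -0.57 ± 0.21 (adjusted p = 1.00). The antisense gene Gm15441 overlaps Txnip and was counted with 95 to 428 reads per library, against 8966 to 36861 for Txnip. The genes most like Txnip over the 12 libraries were Ankrd35 (r = 0.852), Lix1l (0.844) and Tmem252 (0.843). Lix1l and Ankrd35 lie on chromosome 3, 39266 and 108248 bases beyond the end of Txnip.

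P2rx7 encodes the ATP-gated channel whose opening lets potassium out of the cell, a known trigger of NLRP3 (chr5:122643911-122691432, plus strand). It had 4.26, 6.24 and 5.97 CPM in sham control mice 1 to 3 and 5.56, 4.98 and 3.60 CPM in sham dantrolene mice 1 to 3. It had 5.68, 3.73 and 4.88 CPM in TAC control mice and 3.85, 5.51 and 3.60 CPM in TAC dantrolene mice. Every group overlapped every other, and P2rx7 had the smallest spread between mice of a group among the members, with a coefficient of variation of 21.5%. TAC control differed from sham control by -0.20 ± 0.34 log2 units (adjusted p = 0.892), and the drug under TAC by -0.14 ± 0.34 (adjusted p = 1.00). That drug difference was -0.55 within the 4 libraries apart and 0.06 within the other 8.

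The split of the libraries had a gene-length pattern over all genes, which the members followed in part. The 4 libraries apart had higher values than the other 8 without overlap for Pycard and Il18, 2 of 10 members beside 11.6% of all genes, and lower values for Nek7, 1 of 10 beside 10.3%. Differences of mean log2 CPM, the 4 minus the other 8, were 1.78 for Pycard, 1.48 for Il18, 0.40 for Gsdmd, -0.93 for Nlrp3 and -1.15 for Nek7. The lengths that the deposited reads and FPKM imply were 847 bases for Il18, 1662 for Pycard, 4804 for Nlrp3 and 6422 for Nek7. Over all genes tested, the median difference was 0.86 for lengths under 1000 bases and 0.46 from 1000 to 2000. It was -0.03 from 2000 to 4000, -0.35 from 4000 to 8000 and -0.51 above. Other members departed from this pattern. Casp1, with an implied length of 1699 bases, Il1b with 1748 and Casp4 with 1860 had differences of -0.33, -0.07 and 0.03, under the median of their class. P2rx7, with 6168 bases, had -0.03, above the median of its class. Pycard's annotated exons cover 3800 bases, which would place it in the class with a median of -0.03. Each group held 1 of these libraries. The part of gene length in the split was not tested. Without the 4 libraries no member passed the threshold in any comparison, while 484 genes (3.21%) did in TAC control against sham control and 478 (3.17%) for the drug under TAC.

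**Figure D5:**
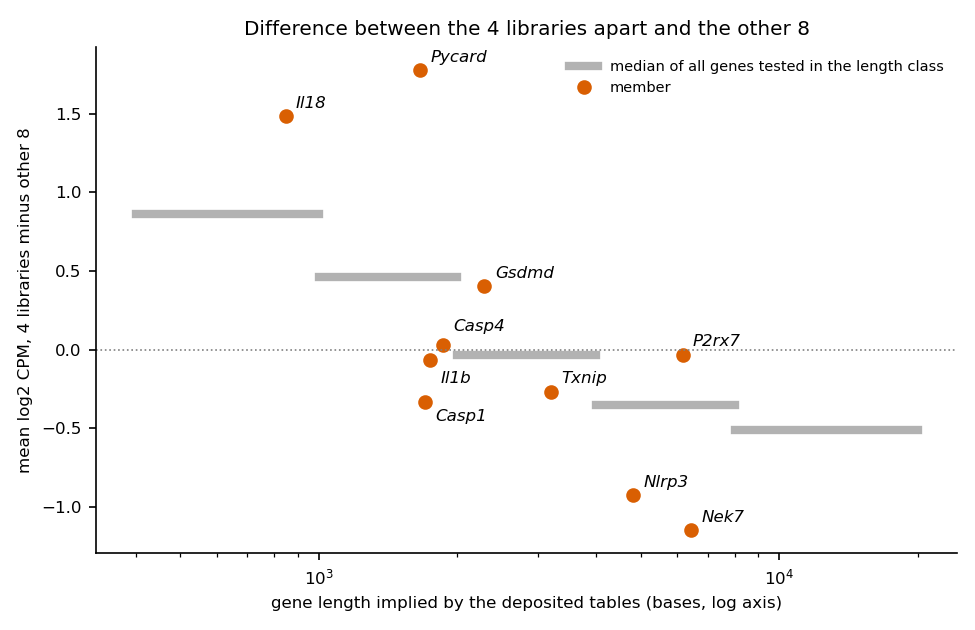
Difference in mean log2 CPM between the 4 libraries apart and the other 8 (vertical axis) against the gene length implied by the deposited tables (horizontal log axis), with a point per member and grey bars at the median of all genes of a length class. Pycard (1.78) and Il18 (1.48) lie above the medians of their classes, and Nek7 (-1.15) and Nlrp3 (-0.93) below theirs, while Casp1 (-0.33), Il1b (-0.07) and Casp4 (0.03) lie below and P2rx7 (-0.03) above theirs.

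Other genes of the pathway were taken from lists given by role, and 0 of them passed the threshold in TAC control against sham control or for the drug under TAC. Of 10 priming genes, all tested, 4 were above and 6 below in TAC control, with a median of -0.04 log2 units beside 0.10 over all genes. Tlr4, the lipopolysaccharide receptor, had 0.904 ± 0.354 CPM (SD, n = 3) in sham control and 3.17 ± 1.54 in TAC control, a difference of 1.81 ± 0.51 log2 units (SE; adjusted p = 0.474), and 2.02 ± 0.70 CPM in TAC dantrolene. Myd88, its adaptor, differed by 0.27 ± 0.25 (adjusted p = 0.792). For the drug under TAC the NF-κB gene Nfkb1 differed by 0.49 ± 0.37 and Traf6, a ubiquitin ligase of the same signalling route, by 0.46 ± 0.42 (adjusted p = 1.00 for both).

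Among other death effectors, Casp12, the neighbour of Casp4, differed by 1.66 ± 0.62 (log2 ± SE) in TAC control against sham control (adjusted p = 0.558). Casp8, the initiator protease downstream of death receptors, differed by 0.40 ± 0.35 with TAC and by -0.80 ± 0.35 with the drug under TAC (adjusted p = 0.787 and 1.00), comparisons that share the TAC control mice. Gsdme, a further gasdermin, listed as Dfna5, differed by -1.01 ± 0.58 with the drug (adjusted p = 1.00).

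Of 11 genes of activation and licensing, all tested, 6 were above and 5 below in TAC control. Gbp5, a guanylate-binding protein reported to aid NLRP3 assembly, differed by 0.90 ± 0.48, the ATP-release channel gene Panx1 by 0.77 ± 0.42 and the co-chaperone gene Sugt1 by 0.59 ± 0.35 log2 units (adjusted p = 0.666, 0.667 and 0.690). With the drug under TAC 4 were above and 7 below. Gbp2 differed by -0.91 ± 0.49, the deubiquitinase gene Brcc3 by -0.83 ± 0.45 and Gbp5 by -0.75 ± 0.47 (adjusted p = 1.00 each).

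Restraining genes were 6 of 8 tested, with 4 above and 2 below in TAC control. Il18bp, the soluble trap of interleukin-18, had 11.4 ± 1.40 CPM in sham control and 14.3 ± 3.88 in TAC control. It differed by 0.33 ± 0.40 with TAC and by -0.54 ± 0.40 with the drug under TAC (adjusted p = 0.842 and 1.00). Nfe2l2, the oxidative stress regulator, differed by 0.44 ± 0.35 with TAC, and Tnfaip3, a brake on NF-κB, by -0.61 ± 0.58 (adjusted p = 0.768 and 0.801). Il1rn, the interleukin-1 receptor antagonist gene, differed by -0.82 ± 0.64 with the drug under TAC and Tnfaip3 by 0.65 ± 0.58 (adjusted p = 1.00 for both).

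Only 3 of 10 other inflammasome sensors passed the filter on low counts: Aim2, which binds cytosolic DNA, and the flagellin and secretion-system receptors Naip2 and Naip5. In TAC control they differed from sham control by 0.99 ± 1.02, -0.19 ± 0.35 and -0.15 ± 0.74 log2 units (adjusted p = 0.814, 0.907 and 0.966). With the drug under TAC they differed by -0.40 ± 0.99, 0.19 ± 0.35 and -0.22 ± 0.75 (adjusted p = 1.00 each). Of 7 cytokine and receptor genes 5 were tested, with 4 above and 1 below in TAC control. The interleukin-1 receptor accessory gene Il1rap differed by 1.17 ± 0.83, Il1rl1, the interleukin-33 receptor, by 0.41 ± 0.81 and Il18rap, the interleukin-18 receptor accessory gene, by 0.53 ± 1.19 (adjusted p = 0.737, 0.913 and 0.924). With the drug under TAC, Il1rl1 differed by 0.48 ± 0.78, Il1rap by -0.31 ± 0.81 and the receptor gene Il1r1 by 0.13 ± 0.46 (adjusted p = 1.00 each).

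Among 9 partners and relatives of Txnip, all tested, 4 were above and 5 below in TAC control. The α-arrestin genes Arrdc4 and Arrdc3 differed by 0.89 ± 0.35 and 0.91 ± 0.46 log2 units and Txn1, the thioredoxin that Txnip binds, by 0.51 ± 0.26 (adjusted p = 0.563, 0.656 and 0.656). With the drug under TAC, Arrdc2 differed by 1.03 ± 0.52, Txn1 by -0.49 ± 0.26 and Mlxip by 0.68 ± 0.39 (adjusted p = 1.00 each). Txn1 had 59.8 ± 13.3 CPM in sham control, 85.2 ± 10.8 in TAC control and 60.5 ± 13.9 in TAC dantrolene (SD, n = 3), while Txnip itself overlapped between these groups.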

How the data were processed

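Left ventricular poly(A) RNA from 12 mice was read as paired 150-nucleotide fragments from directional libraries, per the labels' protocols. The authors deposited counts, whole reads per gene, for 25319 genes and FPKM values, scaled to length and library size, for 25258. GRCm38, bcl2fastq, TopHat2 and edgeR are named, without versions, per the submitters' processing notes. Which tool counted the reads, and whether by strand, is not given in the sources used here. A member and an overlapping gene on the other strand (Il1bos over Il1b, Gm15441 over Txnip, Gm28501 over Nek7, Tex12 and Bco2 over Il18) may therefore not be told apart. Except for Gm15441, these partners had at most 17 reads in a library. That maximum was for Bco2, which is not small beside the 5 to 51 reads of Il18. Gm45205 overlaps Pycard on the other strand and was not among the genes counted.

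Counts were fitted with edgeR 4.0.16 in R 4.3.3: filterByExpr (minimum count 10, total 15), TMM scaling, 1 quasi-likelihood fit of 4 group means over 12 libraries with 8 residual degrees of freedom, two-sided tests and Benjamini-Hochberg adjustment over 14965 genes. Totals were 25766378 to 38363106 reads, and the common biological coefficient of variation was 0.443. CPM values are TMM-scaled. Differences of log2 means within library sets used a pseudocount of 0.1. DESeq2 1.42.0, limma 3.58.1 (voom with sample weights, and log2 FPKM plus 0.1), other scalings and filters and left-out libraries were alternatives. Simulated counts were also fitted, but they lacked the split of the 4 libraries, and no result given here rests on them.

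Groups came from the titles. Within an arm, deviations of same-numbered mice from their group means were correlated (0.485, 0.390 and 0.690 within sham and 0.575, 0.317 and 0.631 within TAC), while the labels do not say what a number marks. Pairs of different number within an arm gave -0.636 to 0.391. The same-number pairs at 0.690 and 0.575 each joined libraries that stood apart. Coordinates are from GENCODE vM21 on GRCm38. Promoters are from RefSeq (GRCm38.p6), which listed 9 of 10 members, and motif shares are over its 32851 promoters. Planned searches of protein motifs were not run, since protein sequences were not used here.

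The members and lists were chosen with earlier results of these data known. All members are named. From each pathway list the 3 genes with the smallest p in each of 2 comparisons are named, and genes most like a member are given for Nlrp3, Casp1, Il18 and Txnip. Ccl3, Cxcl2 and Tube1 and the kappaB consensus were added after values or sequences were seen. Naip1 and Trim31 were not matched in the table. The result of 1 gene of the list of other death effectors, and with it that list's counts and median, is not reported here.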

Additional observations from a re-analysis of the deposited data

How the results depend on the processing

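No member was called in 7 comparisons under the main analysis or when any 1 library was left out (0 to 0). Alternatives called 1 member in 2 cases: Nek7 in TAC control against sham control with voom weights (1 of 10), and Il1b in TAC against sham with DESeq2 (1 of 10). The voom weight of TAC control mouse 2 was 6.56, against 0.233 and 0.676 for mice 1 and 3 of that group. Counts over all genes moved more. DESeq2 called 83 genes in TAC control against sham control, 12 for the drug under TAC, 4 in TAC dantrolene against sham dantrolene, 1 in the interaction, 55 in TAC against sham and 1 in dantrolene against control. Voom weights gave 3299, 123, 81 in the interaction, 368 and 1. Without the 4 libraries apart the counts were 484, 478, 7 in the interaction and 67. With no filter on low counts they were 3, 1 and 4 (TAC against sham), and a fit of only the groups compared gave 1 in TAC control against sham control. Leaving out 1 library gave 0 to 15 genes in TAC control against sham control, where 15 came without TAC control mouse 1, and 0 to 1 for the drug under TAC and for TAC against sham. The cause was not tested. With the replicate number as a block, 0 members and 0 genes were called, and Casp1 under TAC was -1.57 (adjusted p = 0.367). Counts of 2 to 51 reads limit Nlrp3, Casp4 and Il18 most: counting errors at the mean read count were 25.1%, 26.2% and 26.0% of the value, against a spread within groups of 61.0%, 55.4% and 83.0%.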
